A study of Mus musculus with 2 samples.

Results

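Calcium-binding proteins divide the interneurons of the retina into types: antibodies against calbindin, calretinin, parvalbumin and secretagogin are standard labels for horizontal, amacrine, bipolar and ganglion cells. Transcripts of 8 such genes, Calb1, Calb2, Scgn, Pvalb, Necab1, Necab2, Hpca and Cabp1, were followed in eyeballs of C57BL/6 mice, an inbred strain, with oxygen-induced retinopathy (OIR) and in control eyeballs (NOR). The genes were chosen by name as calcium-binding proteins that mark retinal neurons, out of 47644 genes in the deposited table. Their measured values were not part of the rule, but earlier results of these data were known when the choice was made. Each symbol matched 1 gene, all 8 were protein-coding, and all 8 were among 15883 genes with at least 1 FPKM (a read count scaled by transcript length and library depth) in 1 or both libraries. Those 15883 are called the tested genes below, a name that implies no statistical test. RNA sequencing was done on 1 OIR library and 1 NOR library. In the OIR group, pups went into a hyperoxia chamber on day 7, stayed there for 5 days, returned to room air and had their eyes removed on day 17. The NOR group is labelled as control, and the labels do not say on which day its eyes were taken. How many animals or eyes stand behind each library, and their sex, is not stated in the labels, so no value below has a replicate error, and intervals cover the counting of reads only.

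All 8 proteins bind calcium through EF-hands, paired helices that hold the ion in the loop between them. Calbindin, calretinin, parvalbumin and secretagogin hold calcium in the cytosol and shape how far and how fast its signal spreads, and secretagogin also binds proteins of the release machinery. Hippocalcin and the calcium-binding protein encoded by Cabp1 act mainly as sensors, which change shape on binding calcium and then act on membranes, channels or receptors, while the proteins of Necab1 and Necab2 pair EF-hands with a domain related to bacterial monooxygenases. In OIR, hyperoxia halts and closes retinal vessels, and the inner retina, where most of these neurons lie, becomes hypoxic once the pups breathe room air. The deposited annotation gave all 8 genes an EF-hand domain and the term calcium ion binding.

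Reads assigned to genes numbered 20378793 in OIR and 15741235 in NOR. Because the whole eyeball was sequenced, transcripts of lens, cornea, muscle and blood were counted together with those of the retina: lens fibre genes took 18.5% of reads in OIR and 24.3% in NOR, and rod photoreceptor genes 3.37% in OIR and 3.33% in NOR. Retinal neurons were represented in both libraries, with Slc6a9, the glycine transporter of amacrine cells, at 44.4 FPKM in OIR and 60.0 in NOR. Of 11 horizontal cell markers, 7 reached 1 FPKM, among them Sept4 at 98.9 FPKM in OIR and 135.6 in NOR and Prox1 at 37.8 FPKM in OIR and 44.8 in NOR, while Onecut1, Onecut2, Onecut3 and Gja10 stayed under 1 FPKM in both libraries. Over all tested genes the median difference of log2(FPKM + 1), OIR minus NOR, was 0.11, so a gene at 0 stood slightly below the typical gene.

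Promoter sequences of 5 of the 8 genes, Pvalb, Scgn, Necab2, Hpca and Cabp1, were found in the RefSeq promoter table (assembly GRCm38.p6). The 250 bases upstream of the start site are shown for 4 of them because these genes span the range of differences between the libraries, from Scgn, the lowest, to Pvalb, the nearest to 0. Each runs 5′ to 3′ on the minus strand of its chromosome, and capitals mark GGGCGG, the core of a GC box, and TAATCC, a motif bound by photoreceptor homeodomain factors, on either strand. The stretches are chr13:23991215-23991464 for Scgn, chr5:115194382-115194631 for Cabp1, chr4:129121748-129121997 for Hpca and chr15:78206401-78206650 for Pvalb.
Scgn: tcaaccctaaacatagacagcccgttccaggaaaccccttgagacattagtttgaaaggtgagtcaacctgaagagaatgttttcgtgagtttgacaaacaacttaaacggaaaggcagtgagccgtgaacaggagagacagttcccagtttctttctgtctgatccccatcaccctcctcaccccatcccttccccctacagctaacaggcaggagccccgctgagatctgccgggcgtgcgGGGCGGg
Cabp1: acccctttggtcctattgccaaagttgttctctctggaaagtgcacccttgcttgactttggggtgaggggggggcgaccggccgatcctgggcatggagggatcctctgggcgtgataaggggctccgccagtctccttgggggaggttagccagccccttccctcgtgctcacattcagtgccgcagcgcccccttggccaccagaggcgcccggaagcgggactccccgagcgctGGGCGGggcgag
Hpca: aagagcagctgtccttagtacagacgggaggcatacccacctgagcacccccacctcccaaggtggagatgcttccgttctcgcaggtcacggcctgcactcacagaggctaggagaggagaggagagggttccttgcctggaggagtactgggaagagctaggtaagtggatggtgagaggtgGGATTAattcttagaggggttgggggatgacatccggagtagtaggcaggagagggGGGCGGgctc
Pvalb: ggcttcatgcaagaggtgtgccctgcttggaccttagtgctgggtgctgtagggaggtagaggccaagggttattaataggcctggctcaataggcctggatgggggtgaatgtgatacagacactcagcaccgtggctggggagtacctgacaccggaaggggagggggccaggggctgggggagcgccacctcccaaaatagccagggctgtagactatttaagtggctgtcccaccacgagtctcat

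Counted over the full window, 250 bases before to 50 after the start site, GGGCGG or its reverse complement stood in 4 of the 5 promoters, against 35.7% of all 32851 promoters of the table. In Scgn it lay at -7 to -2 relative to the start site, in Hpca at -10 to -5, and in Cabp1 at -12 to -7 and again at 0 to 5, while in Necab2 it lay on the opposite strand at 44 to 49. TAATCC stood in 1 of the 5, on the opposite strand of Hpca at -66 to -61, against 7.06% of all promoters. No match to TATAAA was found on either strand in the 5 windows, against 13.6% of all promoters that hold it. The same held for CCAAT, which 37.4% of all promoters hold. Neither was there a match to TAATTA (5.29% of all promoters). Likewise ACGTG had no match, with 19.6% of all promoters holding it. CpG dinucleotides numbered 22 in Cabp1, 17 in Necab2, 11 in Scgn, 8 in Hpca and 5 in Pvalb, against a median of 7 over all promoters. The start site used for Hpca lies 289 bases inside the gene as deposited, whereas the other 4 start sites coincide with the deposited 5′ end. A match of letters is a description and was not tied to any binding or expression measurement.

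All 8 genes stood lower in the OIR library than in the NOR library, by 18.8% to 42.6% of their read share. The calcium buffers calretinin, calbindin and secretagogin stood lowest, the sensor hippocalcin and parvalbumin stood nearest to NOR, and Cabp1 and the Necab genes lay between.

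Calb2, which encodes calretinin, a buffer of amacrine and ganglion cells whose processes form bands in the inner plexiform layer, was the most abundant of the 8. The gene (ENSMUSG00000003657, mm10 chr8:110142539-110168206, minus strand) had 3346 reads and 114.8 FPKM in OIR, against 4245 reads and 188.6 FPKM in NOR. Its share of all reads in OIR was 0.609 of that in NOR (95% counting interval 0.582 to 0.637), and its difference of log2(FPKM + 1) was -0.71. OIR thus had fewer Calb2 reads than NOR although it was the more deeply sequenced library.

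Calb1 encodes calbindin, the buffer that marks horizontal cells and a subset of amacrine cells. This gene (ENSMUSG00000028222, mm10 chr4:15881264-15908064, plus strand) had 758 reads and 19.7 FPKM in OIR, against 961 reads and 32.4 FPKM in NOR. The read-share ratio was 0.609 (0.553 to 0.671), the same as for Calb2 to 3 digits, although Calb1 had far fewer reads and lies on another chromosome. The difference of log2(FPKM + 1) was -0.69.

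Scgn, which encodes secretagogin, a marker of cone bipolar cell types in the mouse, showed the lowest ratio of the 8. It (ENSMUSG00000021337, mm10 chr13:23953456-23991214, minus strand) had 555 reads and 32.5 FPKM in OIR, against 747 reads and 56.6 FPKM in NOR. The ratio was 0.574 (0.513 to 0.641) and the difference of log2(FPKM + 1) was -0.78. Only 1.23% of tested genes had a lower difference.

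Pvalb stood apart from these 3 buffers. It encodes parvalbumin, which mouse ganglion cells and some amacrine cells make, and which fast skeletal muscle also makes in large amounts. The gene (ENSMUSG00000005716, mm10 chr15:78191114-78206400, minus strand) had 388 reads and 19.7 FPKM in OIR, against 369 reads and 24.3 FPKM in NOR. Its read-share ratio was 0.812 (0.702 to 0.939), its difference of log2(FPKM + 1) was -0.29, and 10.6% of tested genes lay lower. Parvalbumin was thus the only gene of the 8 with more raw reads in OIR than in NOR, and its share was still lower.

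Skeletal muscle genes were found in both libraries, and the labels do not say from which muscle. Of 24 skeletal muscle markers 19 were tested; 5 had a difference below 0, 6 stood at least 1.5-fold higher in OIR and none stood 1.5-fold lower, with a median difference of 0.23 and a range of -0.44 to 1.27. Their summed level was 260.0 FPKM in OIR and 247.2 in NOR. Among genes of fast fibres, Mylpf, a myosin light chain, was at 42.7 FPKM in OIR and 58.3 in NOR, the lowest difference of the list, and Tnnt3, fast troponin T, at 27.6 FPKM in OIR and 26.8 in NOR. Other fast-fibre genes stood higher in OIR: Myh1, a myosin heavy chain, had a ratio of 3.05 (2.57 to 3.64), and Atp2a1, the calcium pump of the fast fibre's store, had 2.31 (1.93 to 2.77). Tnnc2, fast troponin C, had 1 read in OIR and 0 in NOR. The part of muscle in the Pvalb value was not tested.

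Necab1 and Necab2 were lower by nearly the same factor. Both proteins are found in subsets of neurons, and the Necab2 protein binds the adenosine receptor encoded by Adora2a and the glutamate receptor encoded by Grm5. Necab1 (ENSMUSG00000040536, mm10 chr4:14952245-15149794, minus strand) had 504 reads and 9.81 FPKM in OIR, against 584 reads and 14.7 FPKM in NOR, a ratio of 0.667 (0.591 to 0.752) and a difference of -0.54. Necab2 (ENSMUSG00000031837, mm10 chr8:119446719-119472640, plus strand) had 691 reads and 24.8 FPKM in OIR, against 783 reads and 36.4 FPKM in NOR, a ratio of 0.682 (0.614 to 0.756) and a difference of -0.53. Their intervals overlapped over most of their width. The related Necab3 was scarce and its interval held 1, with 3.93 FPKM in OIR and 2.90 in NOR and a ratio of 1.36 (0.912 to 2.04).

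Of the sensors, Cabp1 had the lower ratio and Hpca the higher, with intervals that met at their ends. Cabp1 encodes a calmodulin-like protein, with splice forms known as caldendrin, that modulates calcium channels and inositol trisphosphate receptors. It (ENSMUSG00000029544, mm10 chr5:115168689-115194381, minus strand) had 1072 reads and 35.6 FPKM in OIR, against 1263 reads and 54.3 FPKM in NOR, with a ratio of 0.656 (0.604 to 0.712) and a difference of -0.60. Hpca encodes hippocalcin, a sensor that moves to membranes when it binds calcium. This gene (ENSMUSG00000028785, mm10 chr4:129111570-129122036, minus strand) had 1272 reads and 51.9 FPKM in OIR, against 1304 reads and 68.9 FPKM in NOR, with a ratio of 0.753 (0.697 to 0.815) and a difference of -0.40. The 2 intervals shared only the stretch between 0.697 and 0.712.

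**Figure D1:**
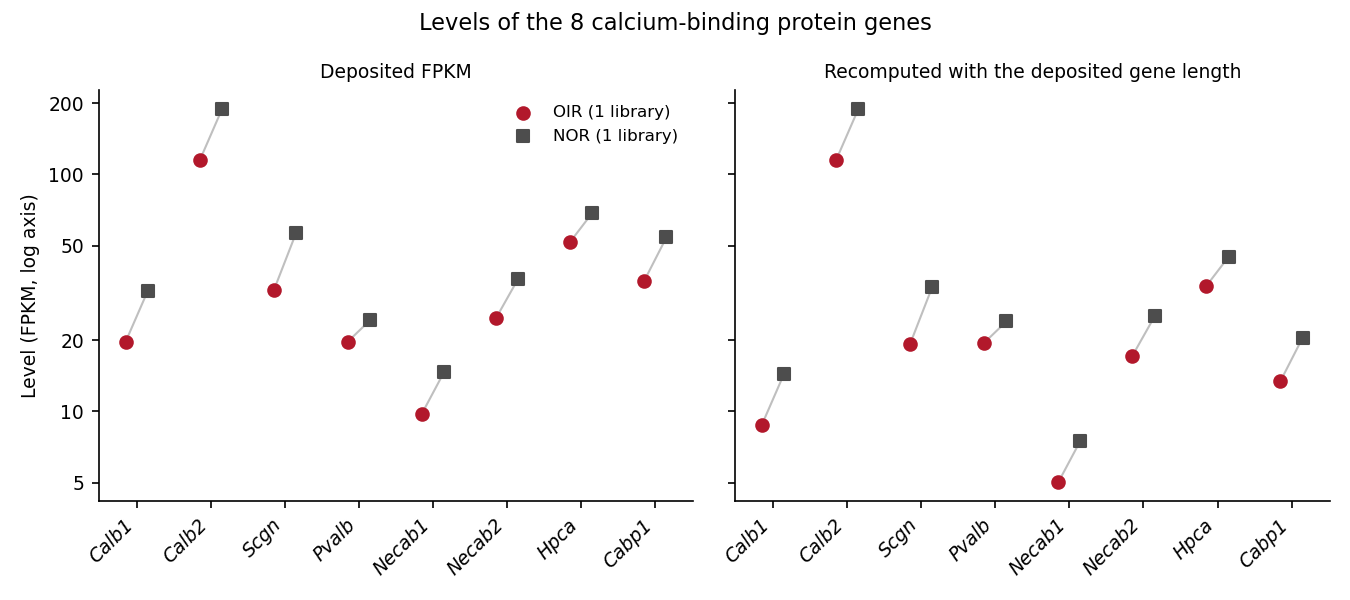
Level of each of the 8 genes in FPKM on a log axis, with the single OIR library and the single NOR library as 1 point each. The left panel shows the deposited FPKM, the right panel levels recomputed with the deposited gene length. Every OIR point lies below its NOR point. On the left they run from 9.81 against 14.7 FPKM for Necab1 to 114.8 against 188.6 FPKM for Calb2. With 1 library per group there is no error bar.

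Added together, the 8 genes took 421 of every 1000000 reads in OIR (95% exact counting interval 412 to 430) and 652 in NOR (639 to 664), a ratio of 0.647 (0.628 to 0.666). Calb2 alone supplied 3346 of 8586 reads in OIR and 4245 of 10256 in NOR. Without Calb2 the ratio was 0.673 (0.649 to 0.699), so the lower sum did not rest on the most abundant gene alone.

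The 8 ratios were not all alike. Of 28 pairs of genes, 6 had 95% counting intervals that did not meet: Calb1, Calb2 and Scgn each lay below Pvalb and below Hpca. Cabp1, Necab1 and Necab2 overlapped with every other gene of the set. These intervals leave out variation between animals, which the data do not hold.

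**Figure D2:**
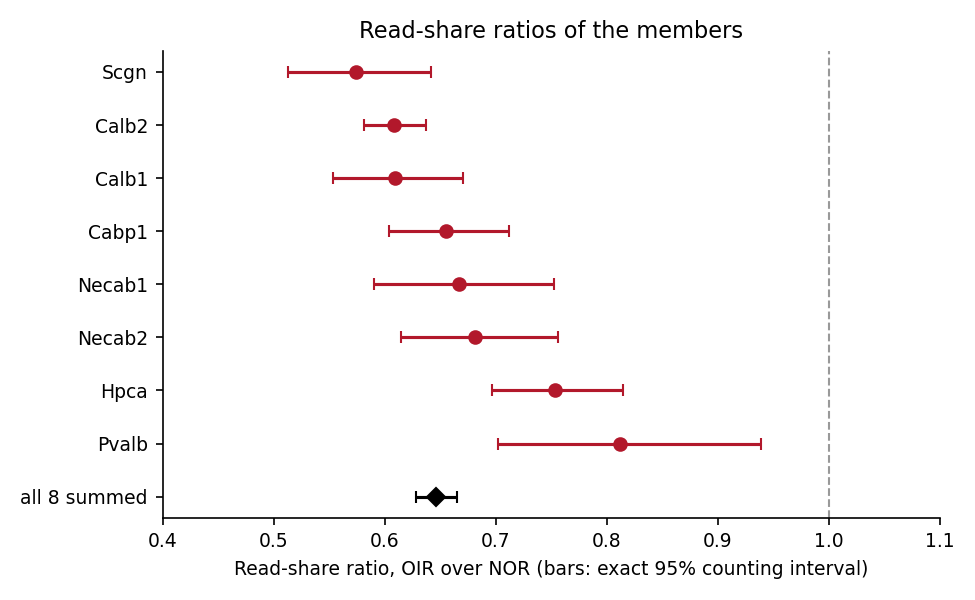
Read-share ratio of OIR over NOR for each of the 8 genes and for all 8 summed, on a linear axis with its 95% exact counting interval, and the line at 1 for equal shares. Ratios of single genes run from 0.574 for Scgn to 0.812 for Pvalb, and all 8 intervals end below 1, the closest being that of Pvalb at 0.939.

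Set against all tested genes, the differences of the 8 lay in the lower tail. Because the 8 were chosen with earlier results of these data known, the shares given here are a description and not a test. The count below 0 was 8 of 8, against 35.1% of tested genes. An interval wholly below 1 was found for 8 of 8, against 14.7% of tested genes. At least 1.5-fold lower on log2(FPKM + 1) stood 4 of 8, namely Scgn, Calb2, Calb1 and Cabp1, against 2.58% (409 genes), and 0 of 8 stood at least 2-fold lower, against 0.718% (114 genes). Necab1, with a read-share ratio of 0.667, fell just short of the 1.5-fold threshold because the added 1 FPKM shrinks the difference of genes at low level. The median over the 8 was -0.57, against 0.11 over all tested genes. None of the 8 stood 1.5-fold higher, which 9.11% of tested genes did, and 3.07% stood at least 2-fold higher.

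Narrower backgrounds gave lower shares. Among 6559 tested genes whose mean level lay between those of the lowest and the highest of the 8, 92 (1.40%) stood at least 1.5-fold lower, with a median difference of 0.09. Among 13634 protein-coding tested genes the count was 217 (1.59%). Both comparisons were added after the data had been seen.

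**Figure D3:**
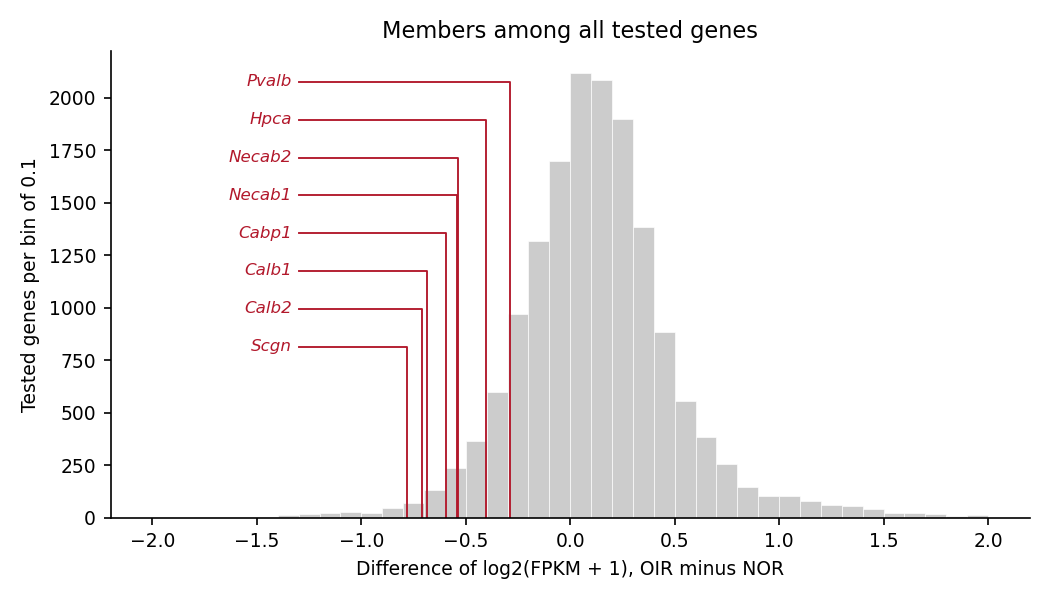
Number of tested genes per 0.1 bin of the difference of log2(FPKM + 1), OIR minus NOR, with the 8 genes marked as vertical lines. The bulk of the 15883 genes lies around the median of 0.11, and the 8 lines fall between -0.78 (Scgn) and -0.29 (Pvalb).

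A comparison of the same 2 libraries stands in the authors' deposited table, made after the counts had been divided by 1 factor per library. In the authors' deposited table the log2 fold changes, OIR over NOR, were -0.94 for Scgn, -0.86 for Calb2, -0.85 for Calb1, -0.75 for Cabp1, -0.72 for Necab1, -0.69 for Necab2, -0.55 for Hpca and -0.44 for Pvalb. The authors' deposited table gave an adjusted p-value of 5.31e-05 for Calb2, 0.431 for Calb1, 0.442 for Cabp1, 0.483 for Scgn and 0.99995 for the other 4 genes. With a single library on each side, these p-values carry no measure of the spread between animals. The order of the 8 was that of the differences above. Against the log2 read-share ratios, the fold changes in the authors' deposited table are lower by the shift of -0.14 that the authors' factors add.

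Within a library, the levels of the 8 genes spanned about an order of magnitude. In OIR the order by FPKM was Calb2, Hpca, Cabp1, Scgn, Necab2, Pvalb, Calb1 and Necab1. The exact counting intervals of neighbours overlapped for Cabp1 and Scgn and for Pvalb and Calb1, and were apart for the other neighbours. In NOR the order was Calb2, Hpca, Scgn, Cabp1, Necab2, Calb1, Pvalb and Necab1, with overlapping intervals for Scgn and Cabp1 and for Necab2 and Calb1. Calb1 and Pvalb were thus level in OIR, at 19.7 FPKM each, and apart in NOR, at 32.4 and 24.3 FPKM.

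This order depended on the length by which reads were divided. For Calb2 the length implied by count and FPKM was 1430 bases, equal to the deposited gene length. For Cabp1 it was 1478 bases against a deposited 3914, and for Calb1 1886 against 4222. With the deposited length, the OIR level of Cabp1 was 13.4 FPKM and that of Calb1 8.81, while Pvalb, at 19.5 FPKM, moved up to the third place. The NOR levels changed by the same factors, to 20.5 FPKM for Cabp1, 14.5 for Calb1 and 24.0 for Pvalb. Ratios between the libraries are free of this choice, because each gene has 1 length in both.

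Other genes overlap 3 of the 8. Nothing in the sources says whether reads were counted by strand or how reads in shared bases were assigned. Necab1 shares 410 of its 5237 exon bases with the antisense gene Gm11837, which itself had 73 reads in OIR and 97 in NOR, a ratio of 0.581 (0.423 to 0.796). Hpca shares 57 of 2922 exon bases with Tmem54, which had 0 reads in OIR and 1 in NOR. Scgn spans Gm11339, with no shared exon base and 15 reads in OIR and 13 in NOR. Of nearby genes within 20 kb, Fndc5, next to Hpca, had a ratio of 0.732 (0.637 to 0.841), while Osgin1, next to Necab2, had 1.41 (0.985 to 2.03), Mlec, next to Cabp1, 1.04 (0.969 to 1.12) and Decr1, next to Calb1, 0.887 (0.765 to 1.03).

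The marker medians of the cell classes that make these proteins were below 0 as well, by less than most of the 8. In bulk samples, fewer cells of a type and less RNA per cell cannot be told apart. Retinal ganglion cell markers were lowest: 14 of 16 were below 0 and 3 stood at least 1.5-fold lower, with a median of -0.47. The lowest of the list were Sncg and Thy1. Sncg, gamma-synuclein, was at 51.2 FPKM in OIR and 85.7 in NOR, and Thy1, a surface glycoprotein of these cells, at 65.2 FPKM in OIR and 104.9 in NOR. Rbpms, at 23.0 FPKM in OIR and 22.3 in NOR, and Jam2, at 54.5 FPKM in OIR and 48.6 in NOR, lay above 0. Horizontal cell markers had a median of -0.25, with 6 of 7 tested below 0 and none 1.5-fold lower, and bipolar cell markers one of -0.20, with 14 of 20 below 0 and 2 at least 1.5-fold lower, Tacr3 and Cabp5. Amacrine cell markers had a median of -0.07, which turned to 0.06 when differences were centred on genes found across neurons, with 14 of 19 tested below 0 and 1 at least 1.5-fold lower, Gad1, the enzyme that makes the transmitter GABA. The lists were mixed. Intervals lay wholly above 1 for 5 of 20 bipolar, 3 of 19 amacrine, 1 of 7 horizontal and 1 of 16 ganglion cell markers. They lay wholly below 1 for 11 bipolar, 6 amacrine, 5 horizontal and 11 ganglion cell markers.

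Each of the 8 was set against the median of the classes known to make it. In 13 of 15 such pairs the calcium-binding protein was the lower. In large part this count restates the low values of the 8. Even Pvalb, at -0.29, lay below the horizontal (-0.25), amacrine (-0.07) and bipolar (-0.20) medians. Scgn lay 0.59 below the bipolar median, and 0 of the 20 bipolar markers had a lower difference than Scgn. That list ran from -0.74 for Tacr3 and -0.65 for Cabp5 to 0.56 for Lrit3. It was not split into bipolar types, so its median need not be that of the cells that make Scgn. Calb1 lay 0.44 below the horizontal median and 0.61 below the amacrine median, and 0 of 7 horizontal and 0 of 19 amacrine markers were lower. Calb2 lay 0.64 below the amacrine median but only 0.24 below the ganglion cell median. Both exceptions were against ganglion cells, where Pvalb lay 0.19 and Hpca 0.07 above the class median. Differences here are between genes within the same pair of libraries and have no test.

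Genes found across neurons, such as synaptic and cytoskeletal genes, were less shifted than the 8. Of 16, 9 were below 0 and 2 at least 1.5-fold lower, Stmn3 and Uchl1, with a median of -0.13. Rod photoreceptor genes had a median of 0.05, with 6 of 16 below 0, a sign that turned under 4 of 11 alternative settings, within -0.09 to 0.18. When all differences were centred on the neuronal list, the median of the 8 was -0.43 and 1 of them, Scgn, stood at least 1.5-fold lower. All 8 remained below 0.

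**Figure D4:**
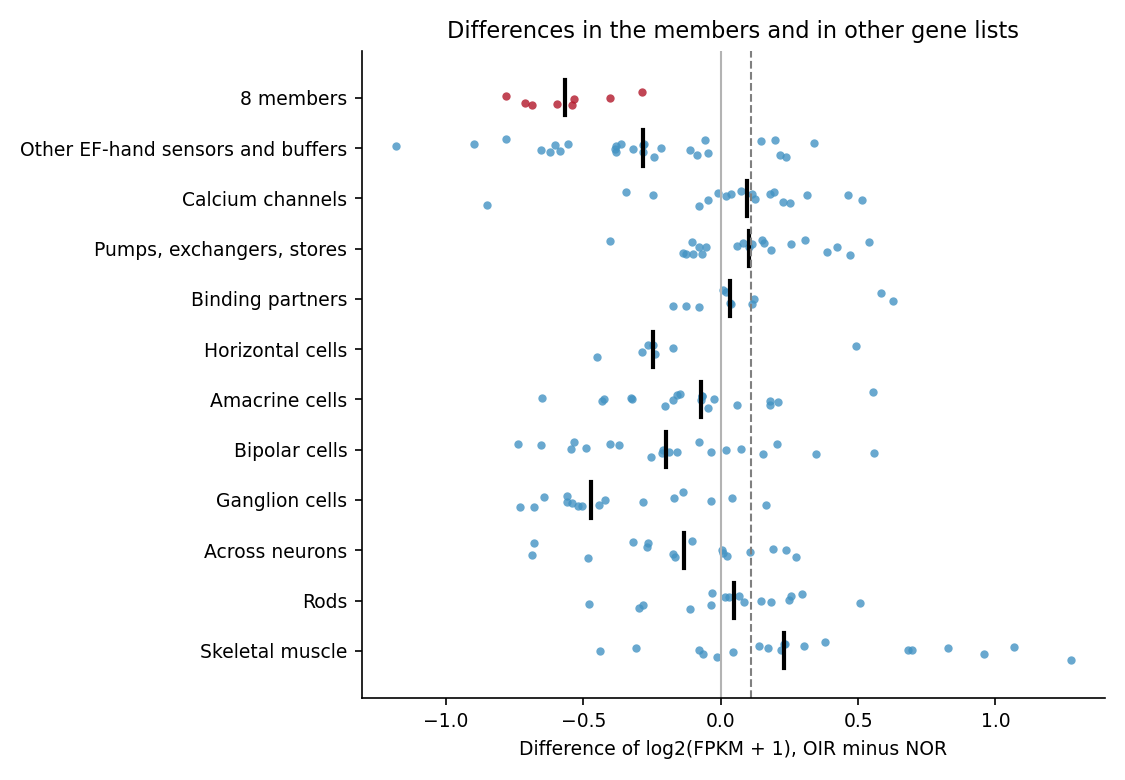
Difference of log2(FPKM + 1), OIR minus NOR, for each tested gene of each list (points) with the list's median (bar). The 8 calcium-binding proteins are all below 0, and their median of -0.57 is lower than those of the horizontal (-0.25), amacrine (-0.07, or 0.06 when centred on genes found across neurons), bipolar (-0.20) and ganglion cell (-0.47) markers.

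Most other EF-hand genes of neurons lay below 0 as well. Of 28 such genes 27 were tested: 22 were below 0, 17 had an interval wholly below 1 and 3 wholly above it, and 7 stood at least 1.5-fold lower against none higher, with a median of -0.28. Guca1a, which activates guanylate cyclase in photoreceptors, was lowest, at 83.1 FPKM in OIR and 189.9 in NOR, a ratio of 0.438 (0.410 to 0.467). Cabp2, a relative of Cabp1 found in bipolar cells, had a ratio of 0.505 (0.388 to 0.654), and Kcnip2, a sensor that joins potassium channels, one of 0.559 (0.475 to 0.657). Cabp5, another relative made by bipolar cells, was at 34.6 FPKM in OIR and 55.0 in NOR, a ratio of 0.629 (0.573 to 0.690). Cabp4, which works in photoreceptor terminals, had a ratio of 0.940, closer to 1 than any tested relative of Cabp1 in the list. The highest were Necab3, Ocm, which encodes oncomodulin, with a ratio of 1.26 (0.648 to 2.504), and S100a10, with 1.16 (1.07 to 1.26).

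Hippocalcin's relatives Hpcal4, Vsnl1, Hpcal1, Ncs1 and Ncald had ratios of 0.647, 0.673, 0.760, 0.813 and 0.959, the interval of Ncald holding 1, and recoverin, encoded by Rcvrn in photoreceptors, had 1.11.

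Across the wider EF-hand family the median difference was 0.10, beside 0.11 over all tested genes. Of 169 tested genes with the deposited Interpro term EF-hand domain, 11 (6.51%) stood at least 1.5-fold lower, 4 of them from the 8 described here and 7 others. Leaving the 8 out, 7 of 161 (4.35%) were at least 1.5-fold lower and 13 at least 1.5-fold higher, with a median of 0.10. Those 7 were Guca1a, Cabp2, Kcnip2, Cabp5, Kcnip3, Hpcal4 and Kcnip4. Among the 20 EF-hand genes with the lowest difference, 6 were from the 8, Scgn in place 3, Calb2 in place 5 and Calb1 in place 6, with Cabp1, Necab1 and Necab2 in places 10, 13 and 14. Of 480 other tested genes annotated to calcium ion binding, 9 (1.88%) were at least 1.5-fold lower and 65 at least 1.5-fold higher, with a median of 0.13.

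Channels, pumps and stores that bring calcium into the cytosol or remove it were near the typical gene. Among 18 voltage-gated calcium channel subunits, 6 were below 0, 1 stood at least 1.5-fold lower on log2(FPKM + 1) and none higher, and the median was 0.10, a sign that turned under 3 of 11 settings (-0.09 to 0.23). The 1 lower gene was Cacna2d3, an accessory subunit, at 7.05 FPKM in OIR and 13.5 in NOR, a ratio of 0.521 (0.466 to 0.583). Cacna2d4, the accessory subunit of photoreceptor channels, lay on the other side, at 208 FPKM in OIR and 151 in NOR, a ratio of 1.38 (1.33 to 1.43). Cacnb4 and Cacna1g had ratios of 0.745 (0.650 to 0.855) and 0.832 (0.775 to 0.894), and Cacna1s, the channel of skeletal muscle, and Cacna1h had 1.71 (1.34 to 2.18) and 1.25 (1.18 to 1.33). Cacna1s passed 1.5-fold by read share only, its difference of log2(FPKM + 1) being 0.51.

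Among 21 pumps, exchangers and store channels, 8 were below 0 and none passed 1.5-fold in either direction on log2(FPKM + 1), with a median of 0.10 (sign turned under 3 of 11 settings, -0.04 to 0.24). Slc24a3, a sodium-calcium-potassium exchanger, had the lowest ratio, 0.753 (0.710 to 0.799). The plasma membrane pump Atp2b3 followed with 0.887 (0.748 to 1.05), and Itpr1, a store release channel that Cabp1 protein binds, with 0.911 (0.827 to 1.00). At the other end, Itpr2 had a ratio of 1.54 (1.31 to 1.80), Itpr3 1.67 (1.40 to 2.00) and the pump Atp2b4 1.38 (1.25 to 1.53). Itpr2 and Itpr3 passed 1.5-fold by read share but not on log2(FPKM + 1), where their differences were 0.54 and 0.47. The 3 inositol trisphosphate receptors did not share a direction, Itpr1 lying at or below 1 and Itpr2 and Itpr3 above it.

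Genes of proteins reported to bind the 8 lay on both sides of 0. Of 12 partners 11 were tested and 3 were below 0. On log2(FPKM + 1) none stood 1.5-fold lower and 1 stood at least 1.5-fold higher. The median was 0.03, a sign that turned under 5 of 11 settings (-0.13 to 0.17). The 1 higher gene was Adora2a, the adenosine receptor that Necab2 protein binds, with 70 reads in OIR and 21 in NOR, a ratio of 2.57 (1.56 to 4.42). Grm5, the other receptor partner, had a ratio of 0.934 (0.781 to 1.12). Snap25, a fusion protein that secretagogin binds, was at 215 FPKM in OIR and 242 in NOR, a ratio of 0.886 (0.863 to 0.910). Dlg4, a scaffold of synapses, had a ratio of 1.5005 (1.46 to 1.54), and Ap2b1, an endocytic adaptor, 1.09 (1.03 to 1.15). Dlg4 passed 1.5-fold by read share only, its difference of log2(FPKM + 1) being 0.5843 against a threshold of 0.5850.

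Tissues other than retina also differed between the libraries. All 23 tested lens fibre genes were below 0, with 7 at least 1.5-fold lower and a median of -0.50. All 15 corneal and conjunctival epithelium markers were above 0, with 13 at least 1.5-fold higher and a median of 1.21, and their share of reads was 0.248% in OIR and 0.0835% in NOR. Each of the 5 tested red cell genes stood 2-fold or more higher (median 1.39), and all 12 tested mitochondrially encoded genes were below 0, with a median of -0.51. The part of unequal tissue content between the eyeballs in the lower values of the 8 was not tested.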

How the data were processed

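RNA sequencing of mouse eyeballs gave 1 OIR library and 1 NOR library, made from 3 µg of total RNA with the NEBNext Ultra RNA kit, per the labels' protocols. The submitters' processing notes name HTSeq 0.6.1, TopHat2 2.0.12, Bowtie2 2.2.3 and the mouse build mm10. How they were ordered and set, which annotation release was used and whether strand was counted were not given in the sources used here. Per the file headers, the deposited table holds read counts and FPKM values per gene, and a scaled signal, the authors' counts divided by 1 factor per library (21.4 for OIR and 15.0 for NOR). The log2 fold change and the p-values come from the authors' deposited table and were only copied.

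Differences were computed here as log2(FPKM + 1), OIR minus NOR, over genes that reached an FPKM of 1 in 1 or both libraries. This scale understates the change of low genes. Read-share ratios have exact conditional (Clopper-Pearson) 95% intervals, which cover counting error only, since PCR reads are not independent molecules. With 1 library per group no count model was fitted and no p-value was computed. The interval was tested on counts simulated with counting error only. That simulation held neither PCR copies nor variation between animals, so it cannot speak to either. Counts and FPKM implied 1 length per gene, the same in both libraries within 0.1% for 22320 genes read in both. That length was within 1 base of the mean GENCODE M21 transcript length for 15818 of 21637 genes, and for 5 of the 8 described here. After 5 broken lines were dropped, 47644 genes remained, 22501 with a symbol from the table and 24264 with one from GENCODE M21, matched by identifier.

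The 8 genes and all lists were chosen with earlier results of these data known, Cabp5 and Guca1a included. All 8 are given in full; of each calcium list, the 3 tested genes farthest from 0 each way are named, and of each cell class or tissue, those farthest in the direction of its median. Further genes named (other relatives of the 8, fast muscle genes, Slc6a9, Prox1, Rbpms, Jam2, Lrit3, neighbours) were chosen after their values were seen. Alternatives were 2 other pseudocounts, 2 other filters, 6 scalings, centring by transcript length and, added after the data were seen, the deposited gene length, an Interpro list and 2 narrower backgrounds. Protein sequences were not used here. Python 3.11.15, numpy 2.4.6, pandas 2.3.3, scipy 1.17.1 and matplotlib 3.10.9 were used.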

Additional observations from a re-analysis of the deposited data

How the results depend on the processing

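Under 12 alternatives, all 96 differences of the 8 genes stayed below 0, and 87 stayed inside the counting interval of the gene. These counts include values that could not move. The 2 other filters change only which genes are tested, and the deposited length of Calb2 equals its implied length. The median of the 8 ran from -0.70 with the deposited scaling factors to -0.43 when centred on genes found across neurons, and was -0.60 without Pvalb. The number at least 1.5-fold lower was 4, between 3 and 6 under the other alternatives, and 1 when centred on genes found across neurons; none was 2-fold lower under any. That centring subtracts the list's median of -0.13 from every difference. It left Calb2 at -0.576, Calb1 at -0.553 and Cabp1 at -0.461, short of the 1.5-fold threshold. The median of all tested genes, 0.11, moved to -0.01 with the deposited factors and to 0.25 with that centring. The count of tested genes at least 1.5-fold lower, 409, became 678 and 728 with pseudocounts of 0.1 and 0.01, 192 at an FPKM of at least 5, 705 when centred on all genes, 726 with the deposited factors, 723 without lens, muscle, red cell and mitochondrial genes, 246 when centred on genes found across neurons, 653 in length bins and 266 where the interval also had to leave out 1. At 2-fold, 114 became 254 and 273 with the smaller pseudocounts, 27 at an FPKM of at least 5, 30 with CPM, 191 without the other tissues, 71 when centred on genes found across neurons and 37 with the interval. No paired analysis was possible because each group is 1 library, and leaving out a library leaves no comparison. Depth limits Pvalb most, with 388 reads in OIR and 369 in NOR. The planned protein comparison was not run.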

Other observations

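At the other end of the EF-hand family, 13 of the 161 tested genes outside the 8 stood at least 1.5-fold higher in OIR. The genes named here were chosen after their values were seen. On log2(FPKM + 1) the highest were Capn11, a calpain protease, at 1.70 and Lcp1, the actin-bundling plastin of white blood cells, at 1.46. Capn11 had 123 reads in OIR and 12 in NOR, a ratio of 7.92 (95% counting interval 4.37 to 15.7). Lcp1 had 358 reads in OIR and 84 in NOR, a ratio of 3.29 (2.59 to 4.23). Myl10, a myosin light chain, followed at 1.07. It had 28 reads in OIR and 5 in NOR, a ratio of 4.33 (1.65 to 14.3), above that of Lcp1.

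Also among these 13, Calml3, a calmodulin-like gene of stratified epithelium, was at 134.7 FPKM in OIR and 77.1 in NOR, a ratio of 1.75 (1.65 to 1.85). Actn4, an actinin, was at 242.8 FPKM in OIR and 148.1 in NOR, a ratio of 1.64 (1.57 to 1.71), and Capn1, another calpain, at 10.2 FPKM in OIR and 5.68 in NOR, a ratio of 1.79 (1.55 to 2.07). The corneal and conjunctival markers, 13 of 15 at least 1.5-fold higher in OIR, moved with these genes, and their part in these values was not tested.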
